A study of Mus musculus with 8 samples.

Results

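The glutathione, glucuronosyl and sulfotransferases were examined in mouse liver, as genes of 4 enzyme classes: cytosolic, mitochondrial and peroxisomal glutathione S-transferases (GST), microsomal glutathione S-transferases (MGST), UDP-glucuronosyltransferases (UGT) and sulfotransferases (SULT). Members were taken from the symbols of the count table by name (Gst followed by a, k, m, o, p, t or z, then Mgst, Ugt1 to Ugt3 and Sult, without pseudogene symbols), and a gene was kept with at least 10 counts in at least 3 libraries. Of 66 such symbols among 31910 genes, 38 were kept: 18 GST, 2 MGST, 10 UGT and 8 SULT genes. The other 28 had 0 counts in every library (17 symbols) or counts under the threshold (11 symbols). The written name pattern asks for a digit straight after Ugt1, Ugt2 or Ugt3 and so, letter by letter, keeps 28 genes and no UGT; the UGT genes were included because the name of the set asks for them.

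The libraries came from frozen liver tissue of mice given an adeno-associated viral vector, AAV2/9-SA in 4 samples (SA 1 to 4) and AAV2/9-Ctrl in 4 samples (Ctrl 1 to 4). The series title concerns a protein of bacterial origin and acetyl-coA carboxylase in nonalcoholic steatohepatitis, a fatty liver disease with inflammation. The design text gives HFD feeding for 24 weeks, HFHC feeding with fructose and sucrose in the drinking water for 16 weeks and normal chow as diets, and tail vein injection of 4.8e10 vector genomes a mouse once feeding had lasted 7 weeks; the labels give neither the diet, strain, sex and age of each mouse nor the promoter of the vector. They do not say that the 8 samples are 8 animals, so the p-values below measure the spread between these samples.

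Total counts were 14114145 to 15922829 in 7 libraries and 28184001 in SA 4. The mitochondrial share of counts was 9.23% in Ctrl 4 and 3.55% to 4.87% elsewhere. Of 12 hepatocyte markers 10 were tested and 8 of these had a positive log2 fold change, with Alb between 42728 and 76455 CPM. Hpd, on the same list but not tested, had 0 counts in all 8 libraries although the authors' FPKM table lists it at 1035 to 1894. The 38 transferases together took 1.15% to 1.64% of all counts, with SA 2 and SA 4 highest.

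These enzymes make lipophilic compounds water-soluble and less reactive. GSTs join glutathione to electrophiles such as drug epoxides and lipid peroxidation products. UGTs transfer glucuronic acid from UDP-glucuronate to bilirubin, steroids, bile acids and drugs. SULTs transfer a sulfonate group from the donor PAPS to phenols, steroids and bile acids. In liver many of their genes are known targets of the receptors CAR, PXR and AhR and of NRF2, and several differ between male and female mice.

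No transferase passed the test between SA and Ctrl (edgeR quasi-likelihood F test on counts, Benjamini-Hochberg adjusted over 12358 genes, threshold 0.05), against a background of 0.0162% of all genes called, 0.00809% with SA higher and 0.00809% with SA lower. DESeq2, which gave a p for 37 of the 38 and none for Sult1e1, called none of these, with 0.346% of its genes called. At an unadjusted p under 0.05 there were 8 of 38 members (21.1%), beside 6.21% of all genes: Gstp1, Sult1e1, Sult2a7, Gstm1, Ugt3a1, Ugt2b35, Gsta2 and Gsta3. SA was higher in 7 of these (background 2.91% of all genes) and lower in Sult1e1 alone (background 3.29%). Log2 fold changes were positive for 20 members and negative for 18, with a median of 0.09; over all tested genes 6014 were positive and 6344 negative, with a median of -0.01. Sult1e1 met the count threshold mainly through Ctrl, the group in which it was higher, so its difference and its place in these counts are no evidence; without it, 7 of 37 members (18.9%) had an unadjusted p under 0.05. In 29 of the 38 members the estimate lay within 0.5 of 0 on the log2 scale. The plot of fold changes shows these estimates by enzyme class.

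**Figure D1:**
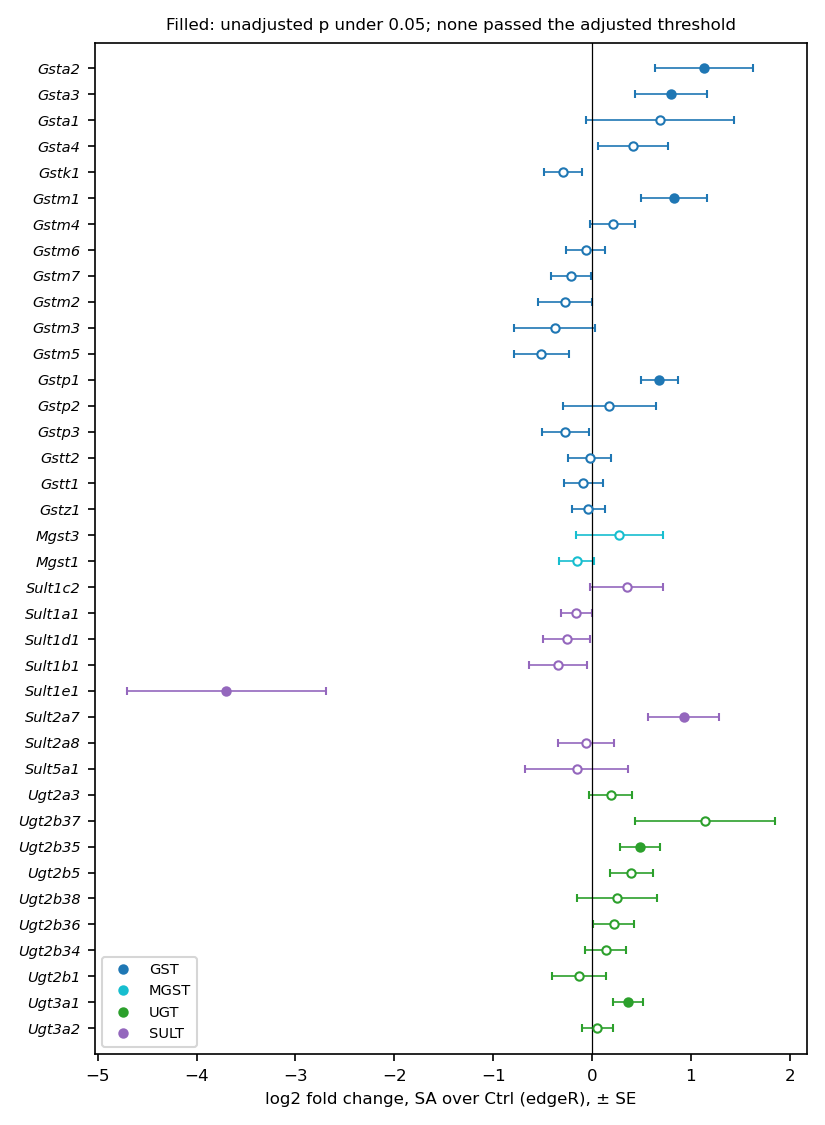
Log2 fold change of SA over Ctrl (x axis) with its standard error for each of the 38 kept transferase genes (y axis), coloured by enzyme class and filled where the unadjusted edgeR p was under 0.05. Of the 8 filled points 7 lie right of 0 and Sult1e1 lies far left at -3.70; no gene passed the adjusted threshold.

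The summed levels of the classes overlapped between the groups. Summed GST counts were 3681, 3460, 3715 and 2668 CPM (counts of a gene over the TMM-scaled total of its library, times 1000000) in Ctrl 1 to 4 and 3305, 5160, 3464 and 6748 CPM in SA 1 to 4. SA 2 and SA 4 stood above every Ctrl library, and SA 1 and SA 3 lay among them. The means were 3381 ± 489 CPM (SD, n = 4) and 4669 ± 1621 CPM (SD, n = 4), a log2 ratio of 0.47. That ratio was 0.60 without SA 1, 0.23 without SA 4 and 0.14 without Ctrl 4 and SA 4 together. Without Gstm1, which held 48.4% of this sum, the other 17 GST genes gave 1976 ± 258 and 2179 ± 334 CPM (SD, n = 4 each). The MGST sum averaged 3999 ± 636 (SD, n = 4) in Ctrl and 3596 ± 450 (SD, n = 4) in SA, in CPM, 99.7% of it from Mgst1. The UGT sum was 3845 ± 850 and 4338 ± 841 CPM (SD, n = 4 each), with positive estimates in 9 of 10 genes. The SULT sum averaged 1245 ± 494 (SD, n = 4) in Ctrl and 1154 ± 57.2 (SD, n = 4) in SA, in CPM, with negative estimates in 6 of 8 genes. The 4 Ctrl libraries of this class ranged from 776 to 1773 CPM and the 4 SA libraries from 1104 to 1236 CPM, inside the Ctrl range. The log2 ratio of the SULT sums was -0.11, and it turned to 0.11 without Ctrl 4, 0.016 without Ctrl 2 and 0.12 without Ctrl 4 and SA 4. The small Gstp subfamily alone had no overlap, with 351 to 535 CPM in Ctrl and 603 to 802 CPM in SA. No p is given for these sums, since the members were chosen with results known. In bulk tissue, fewer cells of a type and less RNA per cell cannot be told apart.

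**Figure D2:**
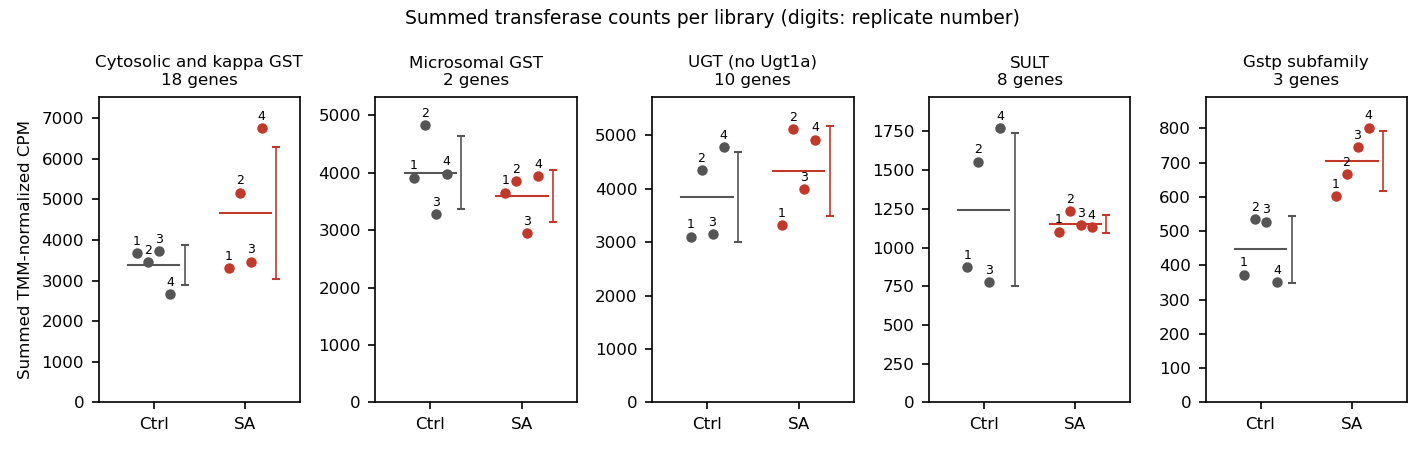
Summed TMM-normalized CPM (y axis, from 0) of each transferase class and of the Gstp subfamily by group, with 1 point per library labelled by replicate number, a line at the mean and a bar for the SD. The GST panel shows SA 2 and SA 4 at 5160 and 6748 CPM above the rest, and only the Gstp panel has all SA points above all Ctrl points.

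Gstp1, the pi-class enzyme that conjugates glutathione with electrophiles such as acrolein, had the smallest p of the 38. Its levels were 352, 514, 514 and 339 CPM in Ctrl 1 to 4 and 586, 652, 734 and 787 CPM in SA 1 to 4. Every SA library was above every Ctrl library. The means were 430 ± 97.5 CPM (SD, n = 4) and 690 ± 88.4 CPM (SD, n = 4). On the log2 scale SA exceeded Ctrl by 0.68 ± 0.18 (SE; edgeR unadjusted p = 0.00261, adjusted p = 0.408; DESeq2 adjusted p = 0.0859). Groups did not overlap in 2 of 38 members (5.26%; Gstp1 and Sult1e1), or in 1 of 37 (2.70%) without Sult1e1, beside 3.12% of all tested genes, 1.66% with SA higher and 1.46% with SA lower. The FPKM table, in which the authors normalized by transcript length and depth, also had Gstp1 without overlap, at 615 to 1277 FPKM in Ctrl and 1348 to 1838 FPKM in SA. Bile duct cells are a known site of high Gstp1 expression, and their marker list had lower estimates in SA: 1 of 7 tested markers was positive, 3 were lower at an unadjusted p under 0.05, and the summed level was 50.7 to 153 CPM in Ctrl and 52.2 to 84.4 CPM in SA. The stellate cell and fibroblast list had 0 of 10 positive and 7 lower at an unadjusted p under 0.05, at 348 to 927 CPM in Ctrl and 285 to 358 CPM in SA, with Lrat at 0. Over all tested genes 3.29% were lower at that threshold. The part of either list in the Gstp1 values was not tested.

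Gstp1 and Gstp2 are 98.1% identical over their longest open reading frame of 633 bases, with 12 differing bases, so that short reads can be assigned to either. The first 90 bases of the frame (positions 1 to 90 from the start codon, GENCODE M21 transcripts of GRCm38) hold 6 of these differences, shown in capitals because the separation of these genes by reads rests on such positions:
Gstp1: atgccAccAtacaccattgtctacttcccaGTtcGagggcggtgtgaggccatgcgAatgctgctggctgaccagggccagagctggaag
Gstp2: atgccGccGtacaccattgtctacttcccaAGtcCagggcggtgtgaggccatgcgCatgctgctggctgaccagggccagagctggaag
Gstp2 had 0.50 to 3.80 CPM in Ctrl and 1.41 to 3.43 CPM in SA, and Gstp3 had 9.78 to 18.7 CPM and 9.06 to 15.2 CPM. Their log2 fold changes were 0.18 ± 0.47 and -0.27 ± 0.24 (SE), so the subfamily's higher SA sum came from reads assigned to Gstp1, 97.3% of it.

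Gstm1, the mu-class enzyme with the highest count of the GSTs, had 1691, 1142, 1821 and 968 CPM in Ctrl 1 to 4 and 1364, 2889, 1571 and 4135 CPM in SA 1 to 4. SA 2 and SA 4 were high, and SA 1 and SA 3 lay within the Ctrl range. The log2 fold change was 0.83 ± 0.33 (SE; edgeR unadjusted p = 0.0280, adjusted p = 0.722). It was 1.03 without SA 1, 0.46 without SA 4 and 0.31 without Ctrl 4 and SA 4 together. Of the 7 mu-class genes 2 had positive and 5 negative estimates, with a median of -0.21. Gstm4 was the other positive one at 0.21 ± 0.23 (SE), and Gstm5 the most negative at -0.52 ± 0.28 (SE), from 7.38 ± 2.10 to 5.12 ± 1.36 CPM (SD, n = 4 each).

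All 4 alpha-class genes, which reduce lipid hydroperoxides and conjugate aldehydes and epoxides, had positive estimates. Gsta2 had 19.6, 10.8, 22.6 and 11.0 CPM in Ctrl 1 to 4 and 8.32, 47.5, 17.8 and 66.2 CPM in SA 1 to 4. The lowest and the highest value of the 8 were both in SA. Its log2 fold change was 1.13 ± 0.50 (SE; edgeR unadjusted p = 0.0414, adjusted p = 0.796). It was 1.46 without SA 1, 0.61 without SA 4 and 0.47 without Ctrl 4 and SA 4 together. Gsta4, known for the conjugation of hydroxynonenal, had 29.4 to 51.9 CPM in Ctrl and 25.1 to 99.2 CPM in SA, at 0.41 ± 0.35 (SE). Its estimate was -0.03 without SA 4 and 0.66 without SA 1. Gsta1, whose reading frame is 97.5% identical to that of Gsta2, had 0.62 to 9.14 CPM in Ctrl and 0.69 to 17.7 CPM in SA. Gsta3 had 3.002, 7.72, 9.96 and 10.9 CPM in Ctrl 1 to 4 and 9.72, 12.1, 22.8 and 10.4 CPM in SA 1 to 4, with Ctrl 1 lowest and SA 3 highest. Its log2 fold change of 0.79 ± 0.36 (SE; edgeR unadjusted p = 0.0490, adjusted p = 0.8002) was 0.44 without SA 3 and 0.52 without Ctrl 1. It was 0.97 without Ctrl 4 and 1.09 without Ctrl 4 and SA 4 together. In the FPKM table it was 0.32 ± 0.26 (SE; limma on log2(FPKM + 1), unadjusted p = 0.253, adjusted p = 0.999). The 2 tables disagree on the level of Gsta3, with means of 10.8 CPM and 1031 FPKM. The GST sum above holds Gsta3 by its counts alone.

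The remaining soluble classes differed less than their libraries spread. Gstz1, maleylacetoacetate isomerase of tyrosine breakdown, averaged 644 ± 128 CPM (SD, n = 4) with Ctrl and 628 ± 57.9 CPM (SD, n = 4) with SA, the log2 fold change being -0.04 ± 0.17 (SE). Gstt1 of the theta class had 242 ± 55.0 and 227 ± 49.7 CPM (SD, n = 4 each), at -0.09 ± 0.20 (SE). Gstk1, the enzyme of mitochondria and peroxisomes, had 144 ± 29.7 and 117 ± 23.6 CPM (SD, n = 4 each), at -0.29 ± 0.19 (SE). Mgst1, a membrane-bound enzyme that also reduces lipid peroxides, had 3891, 4814, 3264 and 3978 CPM in Ctrl 1 to 4 and 3647, 3837, 2936 and 3908 CPM in SA 1 to 4. Its SA values lay within or below the Ctrl range, with an estimate of -0.15 ± 0.18 on the log2 scale (SE; edgeR adjusted p = 0.996). It took 28.9% of all transferase CPM and had the highest FPKM of the family.

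Among the UGTs, Ugt2b35 and Ugt3a1 had unadjusted p-values under 0.05. Ugt2b35 had 186, 217, 170 and 272 CPM in Ctrl 1 to 4 and 220, 320, 248 and 394 CPM in SA 1 to 4. Only Ctrl 4 reached into the SA range, and the log2 fold change was 0.49 ± 0.20 (SE; edgeR unadjusted p = 0.0344, adjusted p = 0.761), 0.31 without SA 4 and 0.62 without Ctrl 4. Ugt3a1, known to use UDP-N-acetylglucosamine as its sugar donor, had 77.7, 104, 84.2 and 102 CPM in Ctrl 1 to 4 and 95.8, 130, 118 and 128 CPM in SA 1 to 4. SA 1 lay below Ctrl 2 and Ctrl 4, and the log2 fold change was 0.36 ± 0.15 (SE; edgeR unadjusted p = 0.0326, adjusted p = 0.746). Its neighbour Ugt3a2, 93.3% identical in reading frame, had 404 to 531 CPM in Ctrl and 410 to 535 CPM in SA, at 0.05 ± 0.16 (SE), the narrowest range over the 8 libraries of all 38 members (1.33 times from lowest to highest).

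Ugt2b5, the UGT with the highest count, had 629, 722, 595 and 805 CPM in Ctrl 1 to 4 and 556, 1164, 832 and 1073 CPM in SA 1 to 4. SA 1 was lowest of all 8, and the other 3 SA libraries were above every Ctrl library. The log2 fold change was 0.40 ± 0.22 (SE; edgeR unadjusted p = 0.0903), 0.26 without SA 2 and 0.57 without SA 1. Ugt2b36 and Ugt2b34, enzymes of the same steroid-glucuronidating subfamily, had log2 fold changes of 0.22 ± 0.21 and 0.14 ± 0.21 (SE), and Ugt2a3 had 0.19 ± 0.21 (SE). Ugt2b1 was the only negative UGT at -0.13 ± 0.27 (SE). Reading frames of Ugt2b38, Ugt2b37 and Ugt2b36 were 97.1%, 94.7% and 88.7% identical to that of Ugt2b5, so counts may be split among them.

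Sult1e1, estrogen sulfotransferase, was the only member with a lower SA level at an unadjusted p under 0.05, on few reads. It had 10, 179, 15 and 22 counts in Ctrl 1 to 4 and 10, 7, 1 and 2 counts in SA 1 to 4, that is 0.68, 12.3, 0.91 and 1.58 CPM against 0.67, 0.44, 0.07 and 0.07 CPM. Ctrl 2 was far above the rest, and Ctrl 1 and SA 1 were nearly equal. The log2 fold change was -3.70 ± 1.002 (SE; edgeR unadjusted p = 0.00286, adjusted p = 0.425) and -1.81 without Ctrl 2. It was also just inside the count threshold, with 10 or more counts in 4 Ctrl libraries and 1 SA library, as was Gstp2 with 7 libraries; Ugt1a7c (1 library) and Sult6b1 (0 libraries, 44 counts in total) were just outside.

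Sult2a7, of the hydroxysteroid sulfotransferase subfamily, had 1.16, 2.48, 1.27 and 1.72 CPM in Ctrl 1 to 4 and 4.23, 3.32, 1.66 and 3.36 CPM in SA 1 to 4. SA 3 alone lay within the Ctrl range, and the log2 fold change was 0.93 ± 0.36 (SE; edgeR unadjusted p = 0.0232, adjusted p = 0.698). Sult2a8, a bile acid sulfotransferase, had 524, 1052, 447 and 1249 CPM in Ctrl 1 to 4 and 758, 847, 827 and 715 CPM in SA 1 to 4. The SA libraries lay together between the low pair Ctrl 1 and Ctrl 3 and the high pair Ctrl 2 and Ctrl 4, with a log2 fold change of -0.06 ± 0.28 (SE). Ugt2b1 had the same split in Ctrl, at 442 and 577 CPM in Ctrl 1 and Ctrl 3 and 1100 CPM in both Ctrl 2 and Ctrl 4. The summed pericentral hepatocyte markers were also highest in Ctrl 2 and Ctrl 4, at 17539 and 16316 CPM. The other 6 libraries had 11203 to 13581 CPM, with Oat at 0 counts. Summed periportal markers split Ctrl alike. They had 8641 and 9299 CPM in Ctrl 2 and Ctrl 4 and 7436 to 7963 CPM in Ctrl 1 and Ctrl 3. Summed male-biased liver genes did so too, at 18109 and 12423 CPM against 6561 and 8587 CPM. The general hepatocyte list did not, with Ctrl 2 lowest of the 4 Ctrl libraries at 75739 CPM. The part of these lists in the Sult2a8 and Ugt2b1 values was not tested. Sult1a1, which sulfonates phenols, had 184 ± 30.3 and 165 ± 21.6 CPM (SD, n = 4 each), at -0.16 ± 0.16 (SE). Sult1b1 and Sult1d1, for thyroid hormones and catecholamines, had -0.35 ± 0.29 and -0.26 ± 0.24 (SE). Sult5a1 had 2.66 to 21.9 CPM in Ctrl and 5.03 to 10.9 CPM in SA, at -0.15 ± 0.52 (SE).

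**Figure D3:**
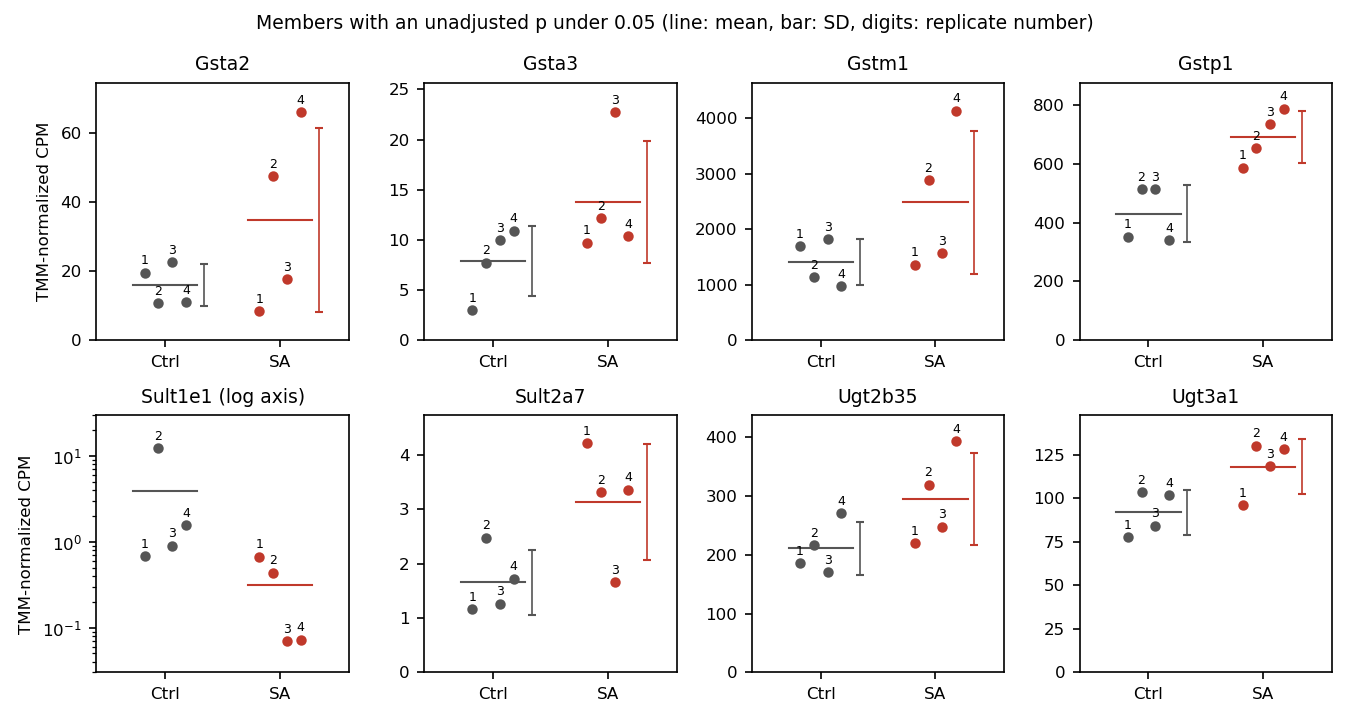
TMM-normalized CPM (y axis) by group for the 8 transferase genes with an unadjusted edgeR p under 0.05, 1 point per library labelled by replicate number; axes start at 0 and bars are SD, except for Sult1e1, drawn on a log axis with means only. Gstp1 and Sult1e1 are the panels without overlap, and SA 2 and SA 4 lie highest for Gsta2, Gstm1 and Ugt2b35.

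The set of 4 libraries in which a gene stood highest was shared by several members. The set most often shared among the members was picked out after the values were seen, so its count is a description with no test, and nothing is read from its background. These 4 libraries, Ctrl 1, Ctrl 3, SA 2 and SA 4, held the 4 highest values of 7 of 38 members (18.4%), beside 1.41% of all tested genes. These were Gsta1, Gsta2, Gsta4, Gstm1, Gstm3, Gstm4 and Mgst3, all of them glutathione transferases. Gstm3, for example, had 139 and 177 CPM in Ctrl 1 and Ctrl 3 and 103 and 135 CPM in SA 2 and SA 4, and 40.7 to 70.2 CPM in the other 4 libraries. Gstm1 was at 1691 to 4135 CPM in the former and at 968 to 1571 CPM in the latter. Since 2 of these libraries belong to each group, the split crosses the comparison of SA with Ctrl. Another 5 members (13.2%, background 2.81%), Gsta3, Ugt2b5, Ugt2b34, Ugt2b35 and Ugt2b36, were highest in Ctrl 4, SA 2, SA 3 and SA 4. This set too was picked out after the values were seen, and nothing is read from its background.

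Other genes shared the first split. Of 14 tested sensor target genes outside the transferases, 3 were highest in the same 4 libraries, beside 1.41% of all tested genes. These were Cyp2b10 and Cyp2c55, known CAR targets, and Cyp2b9, which is also on the female-biased list. So were Gsr of glutathione recycling, Hsd17b13 of the periportal markers and Krt7 of the bile duct markers, 1 gene of each list. The remaining lists had none. Cyp2b9 reached 40.1 CPM in SA 4, 11.9 in Ctrl 1, 5.13 in Ctrl 3 and 3.003 in SA 2, against 0.28 to 1.48 CPM elsewhere. The summed male-biased liver genes were lowest in these 4 libraries, at 6561 to 9803 CPM, and stood at 12423 to 18109 CPM in the other 4. Of 18 tested male-biased genes 4 (Cyp7b1, Mup7, Serpina1e and C6) had their 4 highest values in those others, beside 1.33% of all tested genes and 1 of 38 transferases, Sult5a1. The summed female-biased genes overlapped, at 447 to 1026 CPM in the 4 libraries and 109 to 746 CPM in the others, with Cyp3a41a, Cyp3a41b, A1bg and Xist at 0 counts. Transcripts of the Y-linked gene Ddx3y were present in all 8 libraries at 77.8 to 152 CPM. The part of these genes in the transferase values was not tested, nor was that of the higher total count of SA 4.

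**Figure D4:**
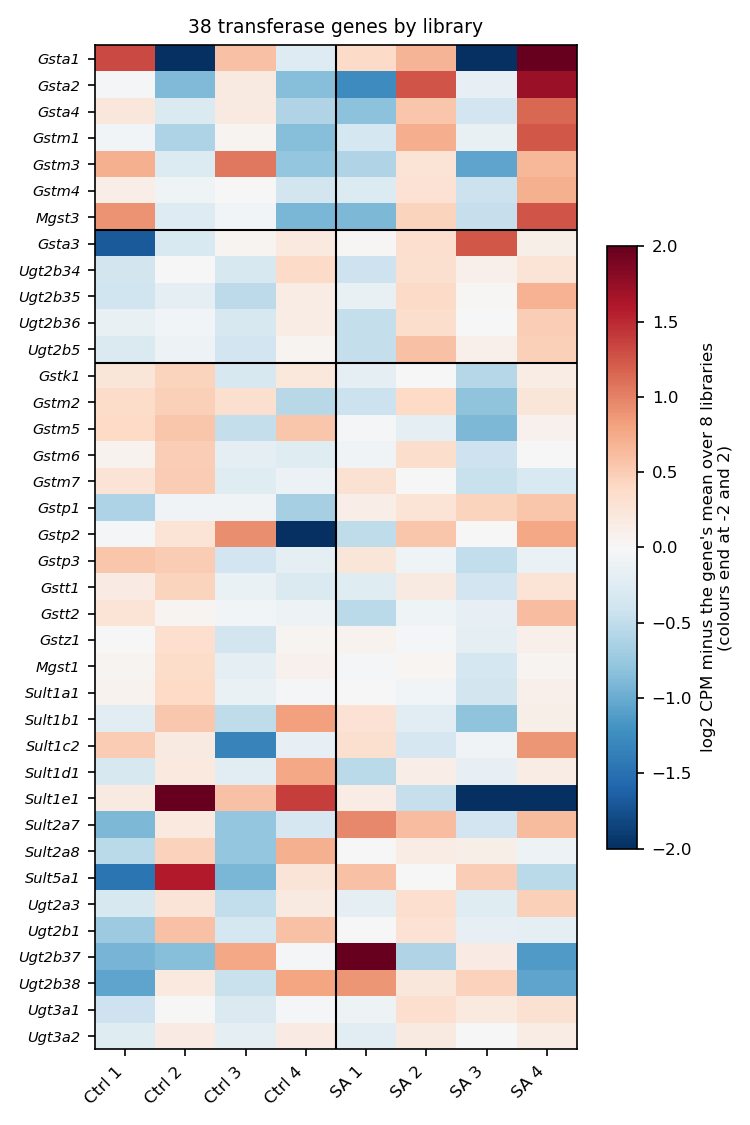
Log2 CPM minus each gene's mean over the 8 libraries (colour, cut at -2 and 2) for the 38 transferase genes (rows) by library (columns, a line between Ctrl and SA). The top block holds the 7 genes highest in Ctrl 1, Ctrl 3, SA 2 and SA 4, and the block below it the 5 genes highest in Ctrl 4, SA 2, SA 3 and SA 4.

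RefSeq promoter windows (GRCm38.p6, 250 bases before to 50 after the gene start) matched 34 of the 38 members. The core xenobiotic response element GCGTG was present in 9 of the 34 (26.5%), beside 35.2% of all genes with promoter windows of that length. It was present in 4 of the 6 matched members that were highest in the same 4 libraries, namely Gsta1, Gsta2, Gstm1 and Mgst3, and in Gstp1. Those 6 were picked after the values were seen and include the close relatives Gsta1 and Gsta2. Nothing is therefore read from motif counts among them. The antioxidant response element core TGACNNNGC was present in 4 of the 34 (11.8%; Gsta3, Gstm5, Gstm7 and Mgst1), beside 14.0% of all genes with such windows, and in 0 of those 6. Both motifs were searched on both strands, their matches may overlap, and a match describes letters only. Windows of 130 bases before to 20 after the start are shown for the 4 members of the shared split that carry the match and for Gstp1, with GCGTG in capitals: Gsta1 at chr9:78230539-78230688 on the plus strand, Gsta2 at chr9:78347126-78347275 on the minus strand, Gstm1 at chr3:108017954-108018103 on the minus strand, Mgst3 at chr1:167393822-167393971 on the minus strand and Gstp1 at chr19:4037893-4038042 on the minus strand.
Gsta1: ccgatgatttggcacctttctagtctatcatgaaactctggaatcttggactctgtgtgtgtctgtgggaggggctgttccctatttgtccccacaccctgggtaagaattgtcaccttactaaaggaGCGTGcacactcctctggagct
Gsta2: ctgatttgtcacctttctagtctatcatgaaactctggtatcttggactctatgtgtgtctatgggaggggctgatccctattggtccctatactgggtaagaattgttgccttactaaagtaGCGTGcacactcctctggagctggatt
Gstm1: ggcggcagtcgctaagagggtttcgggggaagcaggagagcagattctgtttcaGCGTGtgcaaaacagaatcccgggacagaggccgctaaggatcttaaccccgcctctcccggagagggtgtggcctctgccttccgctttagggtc
Mgst3: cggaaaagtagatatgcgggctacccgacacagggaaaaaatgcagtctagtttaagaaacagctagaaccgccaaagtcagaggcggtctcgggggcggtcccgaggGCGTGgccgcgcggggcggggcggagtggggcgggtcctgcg
Gstp1: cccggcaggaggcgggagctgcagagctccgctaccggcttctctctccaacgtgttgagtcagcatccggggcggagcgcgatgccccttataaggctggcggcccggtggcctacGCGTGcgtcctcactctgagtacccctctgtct
The 300-base promoters of Gsta1 and Gsta2 were 74.6% identical, and the match lies near the start in both.

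The genes that supply and carry the conjugates were taken from lists of glutathione synthesis, UDP-glucuronate supply, PAPS supply, efflux, sensors and sensor targets. None of their tested members passed (edgeR; background 0.0162%). Of 12 tested genes of glutathione synthesis and recycling 6 had positive and 6 negative estimates, with a median of 0.02. Oplah, which opens oxoproline to glutamate, had 158 to 208 CPM in Ctrl and 230 to 286 CPM in SA, without overlap (log2 fold change 0.49 ± 0.14, SE). Ggct, which forms oxoproline, had 6.82 to 9.79 CPM in Ctrl and 4.15 to 5.77 CPM in SA, also without overlap (-0.73 ± 0.21, SE). Gclc, the catalytic subunit of the enzyme limiting glutathione synthesis, had 0.32 ± 0.16 (SE).

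Of 6 tested UDP-glucuronate genes 3 were positive, with a median of 0.04. Ugp2, which makes UDP-glucose, had -0.42 ± 0.20 and Ugdh, which oxidizes it to UDP-glucuronate, 0.31 ± 0.16 (SE). Of 7 tested PAPS genes 5 were positive, with a median of 0.08, among them Slc35b3, a PAPS transporter of the Golgi, at 0.18 ± 0.17 and Bpnt2, a phosphatase acting on what PAPS leaves behind, at 0.17 ± 0.19 (SE).

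Of 9 efflux transporters 6 were positive, with a median of 0.02. Abcc4, which exports conjugates across the basolateral membrane, had 4.89 to 6.17 CPM in Ctrl and 6.51, 25.3, 10.7 and 23.7 CPM in SA 1 to 4, without overlap. Its log2 fold change was 1.54 ± 0.36 (SE); it missed the threshold in edgeR and passed it in DESeq2 (adjusted p = 0.0106) and in edgeR without SA 1 (adjusted p = 0.0285). Abcb1b had -0.71 ± 0.34 (SE).

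Of 14 tested sensors and partners 12 had positive estimates, with a median of 0.19. Nr1i3, which encodes CAR, had 8.33 to 12.9 CPM in Ctrl and 15.0 to 20.5 CPM in SA, without overlap, at 0.82 ± 0.19 (SE; DESeq2 adjusted p = 0.0494, edgeR above the threshold). Hnf4a, a hepatocyte transcription factor, had 0.61 ± 0.17, while Nfe2l2, which encodes NRF2, had -0.32 ± 0.16 (SE). Of 14 tested sensor targets 12 had positive estimates, with a median of 0.39, including Cyp1a1 at 1.13 ± 0.40 and Aox1 at 0.54 ± 0.19 (SE). Over all 12358 tested genes 6014 were positive. The summed sensor targets had 5976 to 7005 CPM in Ctrl and 4330, 6363, 5430 and 8080 CPM in SA 1 to 4. By this sum SA 1 and SA 3 lay below every Ctrl library, and SA 4 lay above.

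The count table and the FPKM table of the authors differed for several transferases. The FPKM table lists 41 transferases, 34 of them among the 38 kept. It holds 6 with 0 counts in every library (14.6%, beside 5.73% of the 8638 genes in both tables): Gsto1, Ugt1a1, Ugt1a5, Ugt1a6a, Ugt1a6b and Ugt1a9. Ugt1a1, the bilirubin-conjugating enzyme, was listed at 309 to 585 FPKM, the seventh highest transferase, and Gsto1 at 66.6 to 132 FPKM. In GENCODE M21 the Ugt1a genes share 50.3% to 82.7% of their exon bases with their neighbours, since they use common last exons, and Gsto1 shares 0%. The part of shared exons in the 0 counts was not tested. The sources used here do not name the program that made the counts. No Ugt1a gene met the count threshold, so the whole subfamily is missing from the CPM values above.

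Gsta3 had a mean of 10.8 CPM yet 1031 FPKM, a ratio of 95.3 FPKM per CPM. Over 7949 genes with at least 80 counts the median of this ratio was 0.40 and the 5th to 95th percentiles were 0.076 to 1.93. Of the 34 kept members 5 lay outside these percentiles: Gsta3, Sult2a8, and, less far, Gstp1 at 2.22, Gsta1 at 3.05 and Ugt2b38 at 3.44. Gstt3, with 8 counts in all, was listed at 29.4 to 103 FPKM. Sult2a8 went the other way, with 802 CPM and 14.7 FPKM, a ratio of 0.018; its log2 fold change was -1.27 ± 0.54 (SE; limma on log2(FPKM + 1), unadjusted p = 0.0434, adjusted p = 0.999) there and -0.06 by count. By FPKM, which is scaled by transcript length, the order was Mgst1 (4058), Gstm1 (1832), Gstp1 (1245), Gsta3 (1031), Ugt2b36 (504), Ugt2b5 (478) and Ugt1a1 (452), as means of the 8 libraries. Of these, Gstp1 and Gsta3 lay outside the percentiles above and Ugt1a1 had 0 counts, so their places hold for the FPKM table only. The means of Ugt2b36, Ugt2b5 and Ugt1a1 differ by less than their spread over libraries.

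No transferase passed in the FPKM table (limma on log2(FPKM + 1), background 0.0324% called), and 4 of the 41 had an unadjusted p under 0.05 (background 3.44%): Gstp1, Gstp2, Sult2a8 and Gstt3. Gstp1 had 0.79 ± 0.24 (SE; limma unadjusted p = 0.0100, adjusted p = 0.999). Signs of the estimates matched between the tables for 28 of the 34 kept members, from the same libraries. Ctrl 1, Ctrl 3, SA 2 and SA 4 were again the highest 4 libraries for 10 of 41 transferases (24.4%), beside 7.39% of all rows of that table. Of these, Gsta4, Gstm1, Gstm3, Gstm4 and Mgst3 were so by count too; Gsta1 and Gsta2 were so by count alone, and Gsta3, Gstm2, Gsto1, Ugt1a1 and Ugt2b35 only in FPKM.

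**Figure D5:**
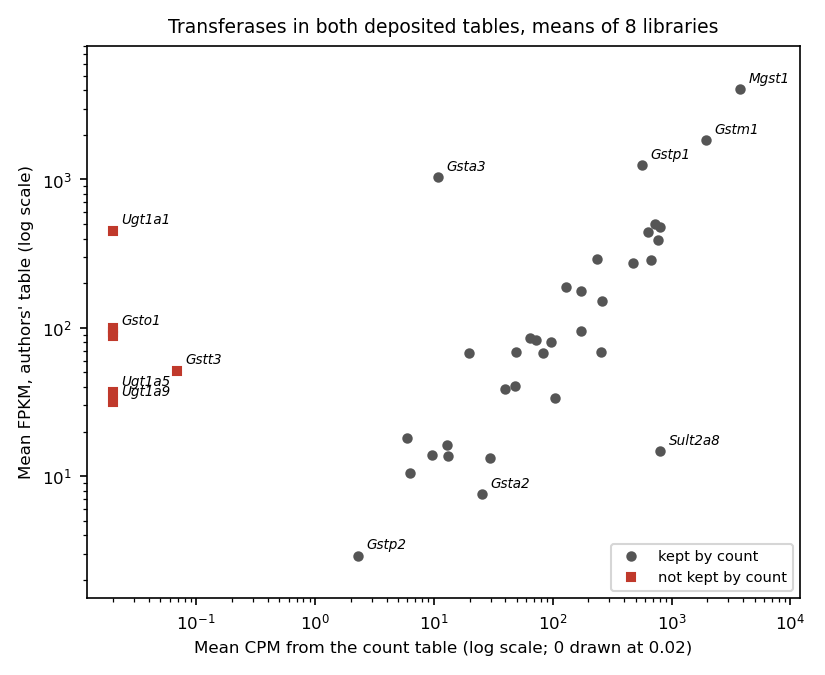
Mean FPKM of the authors' table (y axis, log scale) against mean CPM from the count table (x axis, log scale, 0 drawn at 0.02) for the 41 transferases in the FPKM table, means of 8 libraries. Most genes follow 1 band, with Gstp1 near its upper edge, Gsta3 lies far above it, Sult2a8 far below, and the squares at the left are genes with 0 or 8 counts.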

How the data were processed

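Gene expression was measured by RNA sequencing in 8 mouse liver libraries, grouped by their titles. The authors deposited whole-number read counts per gene with no normalization, and a table of FPKM values for 9265 symbols, of which 8638 are in the count table. The tools HISAT2, StringTie 2.2.1 and FastQC 0.19.7 and the builds mm10 and GRCm39 are named, without roles, per the submitters' processing notes. The sources used here name no counting program, and the kit is not labelled as strand-specific.

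The whole count table was fitted in edgeR 4.0.16 (R 4.3.3; TMM factors, filterByExpr, 12358 genes, quasi-likelihood F test, Benjamini-Hochberg adjustment, threshold 0.05). SE is the log2 fold change over the root of F. CPM is a count over the TMM-scaled total of tested genes, times 1000000. The biological coefficient of variation was 22.6%. FPKM values were tested with limma 3.58.1 on log2(FPKM + 1), where fold changes of low genes are understated. The edgeR fit was tested on simulated data.

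Members and lists were chosen with earlier results of these data known. The text names every member with an unadjusted p under 0.05 or without overlap, the highest and the smallest-p member of each subfamily, the 2 smallest-p genes of each list and members beside the count threshold; any other member or gene was picked with its values in view. The lists also held markers of other cell types and neighbouring tissues. Alternatives were DESeq2 1.42.0, limma-voom, RLE and upper quartile factors, library totals, other filters, a mitochondrial covariate, the replicate block, FPKM, each library left out and, chosen after seeing the data, Ctrl 4 and SA 4 left out together. No 2 libraries agreed within sampling noise (lowest chi-square per degree of freedom 24.6).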

Additional observations from a re-analysis of the deposited data

Results flagged for a closer look

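Of 88 groups of 4 libraries examined for a library far from the others, 2 were picked out; chance alone picks about 1 in 20. Sult1e1 stood at 12.3 CPM in Ctrl 2, while the other Ctrl libraries had 0.68 to 1.58 CPM. Ugt2b37 stood at 39.5 CPM in SA 1, while the other SA libraries had 2.89 to 7.12 CPM; its log2 fold change over all libraries was 1.14 ± 0.71 (SE).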

How the results depend on the processing

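No member passed in any alternative fit that tested it, and 13 of 20 named members kept their sign in each fit that held them. Sult1e1, Sult2a7 and Sult5a1 were not in the 3 FPKM fits, and DESeq2 gave no p for Sult1e1. The number of members with an unadjusted p under 0.05 was 8 in the main fit, beside 6.21% of all genes. It was 3 in each of the 3 FPKM fits, beside 3.44% of all genes in limma on log2(FPKM + 1). Without single libraries it was 3 (without SA 2) to 8, with 4 each without Ctrl 1, Ctrl 2 or SA 4. The share of all genes is not given for the other alternatives, the replicate block included, so nothing is read from their counts. With Ctrl 4 and SA 4 left out together, Gsta4 was -0.17, Gstp2 -0.38 and Sult2a8 0.25. Sult2a8 was also 0.074 in limma-voom and 0.17 with the mitochondrial covariate, and Sult5a1 was 0.22 in limma-voom. In FPKM, Gstz1 was 0.043 with a pseudocount of 0.1 and 0.042 with 1, Slc35b3 -0.68 and -0.45, and Susd4, a male-biased gene at 0.73 by count, -0.41 and -0.26, with 1 giving these values with or without the filter. Without single libraries, Gsta4 ranged from -0.026 to 0.66, Gstp2 from -0.15 to 0.60, Gstt1 from -0.21 to 0.064, Gstz1 from -0.15 to 0.087, Sult2a8 from -0.26 to 0.21, Sult5a1 from -0.48 to 0.72 and Ugt3a2 from -0.022 to 0.13. The SULT sum ratio ranged from -0.28 to 0.11. The cause was not tested. Of the lists, only Cyp2c40 passed; without single libraries the number passing was 0 (without Ctrl 4, adjusted p = 0.0602) to 2 (without SA 1).

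Replicate numbers gave no sign of pairing the samples: deviations of same-numbered libraries correlated at -0.02, -0.02, 0.22 and -0.22 across genes. With the number as a replicate block 0 members passed, 7 had an unadjusted p under 0.05, and Sult2a8 and Sult5a1 changed sign, to 0.076 and 0.21; no call changed.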

Other observations

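Among the lists of sex-biased liver genes outside the transferases, Cyp2c40, a female-biased cytochrome P450 with near-identical relatives, passed the test (edgeR adjusted p under the threshold; 0.55 to 1.17 CPM in Ctrl, 5.13 to 9.39 CPM in SA, log2 fold change 3.10 ± 0.33, SE) and fell short of it without Ctrl 4. Cyp2c69 of the same list had 0.07 to 0.66 CPM in Ctrl and 0.87 to 3.75 CPM in SA, with a log2 fold change of 2.48 ± 0.60 (SE), and passed in DESeq2 only (adjusted p = 0.0150). Both genes were near the floor in Ctrl and met the filter on low counts mainly through SA, the group in which they were higher. Their differences are therefore no evidence. Of 9 tested female-biased genes 6 were positive, with a median of 0.87, and of 18 male-biased genes 7 were positive, with a median of -0.02. Serpina1e, a male-biased serpin, ranged from 77.4 to 1121 CPM in Ctrl and from 208 to 2835 CPM in SA, and Susd4 from 6.48 to 28.2 and from 14.4 to 43.4 CPM.

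Of 12 tested periportal markers 9 were positive (median 0.12) and of 11 pericentral markers 5 (median -0.01). Of the other cell type lists, 4 of 9 endothelial markers were positive (307 to 474 CPM in SA, 379 to 452 CPM in Ctrl), 9 of 14 macrophage markers (633 to 878 and 495 to 853 CPM; the 5 negative ones, Gpnmb, Cx3cr1, Ccr2, Trem2 and Lyz2, all had an unadjusted edgeR p under 0.05 at log2 fold changes of -2.93 to -0.54, and 1 positive one, Timd4, had 0.71), 9 of 10 lymphocyte markers (4 at an unadjusted p under 0.05; 29.0 to 53.3 and 24.2 to 35.3 CPM, Ms4a1 at 0) and 0 of 3 neutrophil markers (6.82 to 10.5 and 6.55 to 17.7 CPM, Ly6g and Camp at 0). Over all tested genes 2.91% were higher and 3.29% lower in SA at an unadjusted edgeR p under 0.05. Markers of neighbouring tissues summed to 7.85 to 19.5 CPM in all libraries, and 8 of 16 were at 0.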
